A study of Mus musculus with 9 samples.

Results

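The MAP kinase phosphatases of the Dusp family were followed in mouse heart through 8 genes named by symbol: Dusp1, Dusp3, Dusp4, Dusp6, Dusp7, Dusp8, Dusp10 and Dusp16. They are 8 of 21989 gene symbols in an RNA sequencing table of 9 hearts, and 7 of the 11380 genes whose level was high enough to test. All mice were male C57BL/6J, 18 to 20 weeks old, in 3 groups of 3. The sham group had a sham operation and distilled water. The TAC group had the operation that the labels call TAC, usually read as transverse aortic constriction, and distilled water. The LD group had TAC and Lingguizhugan decoction, a Chinese herbal preparation. By its title the study looks at how this decoction acts on MAP kinase and AKT signalling in heart failure. The dose, the time from operation to collection and the cutting of the tissue are not stated in the labels, which say heart without naming a chamber. The labels call the samples biological repeats and name no litter or batch. The p-values set a difference against the spread between hearts within a group, pooled over all 3 groups.

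MAP kinases are switched on by phosphate groups on both a threonine and a tyrosine of their activation loop, and dual specificity phosphatases switch them off by removing both. The family divides by place and preference: inducible enzymes of the nucleus (Dusp1, Dusp4), cytoplasmic enzymes that act mainly on the ERK kinases (Dusp6, Dusp7), enzymes that act mainly on JNK and p38 (Dusp8, Dusp10, Dusp16), and the small phosphatase Dusp3, which lacks the kinase-binding domain of the others. Several are themselves made in response to the kinases they inactivate, so that the pathway limits itself, and Dusp1 belongs to the immediate early genes, which are transcribed within minutes of a stimulus. In the heart, ERK, JNK and p38 are studied for their part in the growth response to pressure load.

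The upstream sequences of Dusp1, Dusp8 and Dusp3 are shown because the first pair hold a complete cyclic AMP response element (TGACGTCA, the site that CREB factors bind) and had the 2 most negative TAC against sham differences of the 7 tested members, while Dusp3, at the next highest level after Dusp1, holds none. This choice was made after the values were seen. The windows of Dusp6, Dusp7, Dusp10 and Dusp16 hold no complete element either, and Dusp7 also lay below 0 (-0.25). The Dusp8 difference had a 95% interval that spans 0 (-1.15 to 0.19). Each is the 250 bases before the RefSeq transcript start on GRCm38.p6, written along the gene's strand, with the complete element and its 5-base part TGACG (on either strand) in capitals. Each window lies inside the GENCODE M21 bounds of its gene, given below, which reach further upstream than the RefSeq start used. The Dusp1 sequence is chr17:26508473-26508722 on the minus strand, that of Dusp8 is chr7:142095285-142095534 on the minus strand, and that of Dusp3 is chr11:101984792-101985041 on the minus strand.
Dusp1: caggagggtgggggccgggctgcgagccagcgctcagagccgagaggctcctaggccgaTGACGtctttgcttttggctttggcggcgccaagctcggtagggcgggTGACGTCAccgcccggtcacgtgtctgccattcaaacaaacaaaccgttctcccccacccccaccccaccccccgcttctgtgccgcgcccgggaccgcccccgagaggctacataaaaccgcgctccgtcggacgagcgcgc
Dusp8: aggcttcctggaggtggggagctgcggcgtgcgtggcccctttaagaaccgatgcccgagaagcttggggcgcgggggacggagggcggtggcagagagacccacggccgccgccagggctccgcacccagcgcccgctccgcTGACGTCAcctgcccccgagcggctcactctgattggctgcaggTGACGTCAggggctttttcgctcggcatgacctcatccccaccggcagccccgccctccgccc
Dusp3: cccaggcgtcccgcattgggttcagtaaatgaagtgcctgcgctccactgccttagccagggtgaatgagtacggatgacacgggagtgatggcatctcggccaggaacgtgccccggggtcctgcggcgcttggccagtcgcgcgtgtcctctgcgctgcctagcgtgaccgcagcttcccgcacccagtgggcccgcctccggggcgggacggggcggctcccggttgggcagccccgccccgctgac
In Dusp1 the complete element ran from 143 to 136 bases before the start, and Dusp8 held 2, from 107 to 100 and from 63 to 56 bases before it. The element was present in 1.55% of all 32851 promoter windows of the same length and in 2.52% of the 11177 windows of tested genes. The short form TGACG was present in 26.3% of the windows of tested genes, and outside Dusp1 and Dusp8 it occurred among the members in Dusp16 alone. Of the 8 genes, 7 matched the RefSeq table, and Dusp4 did not. None of the 7 windows held an AP-1 site (TGANTCA, in 4.34% of windows of tested genes), a full glucocorticoid response element (in 0.00895%), a TATA box (TATAAA, in 6.48%), an ETS site (CCGGAAGT, in 5.56%) or a CArG box (in 1.23%), searched on both strands. These matches describe letters in a window, with no binding measured here.

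Library totals recovered from the FPKM steps ran from 7.43 to 18.1 M fragments, with TAC replicates 1 and 3 and LD replicate 1 under 9 M. TAC replicate 3 and LD replicate 3 lay at opposite ends of the first principal component (29.4% of variance, at -51.0 and 48.3 against -10.4 to 17.1 in the others). The table falls into 2 kinds of library by how fragments were counted. In sham replicates 1 and 3 and TAC replicates 2 and 3, between 89.2% and 91.2% of genes with 20 to 100 recovered fragments had an even number, against 47.4% to 52.9% in the other 5 libraries, which include all of LD. A fragment may have been counted as 2 in the first kind, whose true depth would then be lower than its total. No LD library had this pattern, so LD against TAC and the pattern cannot fully be told apart.

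Levels are given as FPKM, fragments scaled by transcript length and library total, so that genes can be compared. Mean FPKM over the 9 libraries was 77.1 for Dusp1, 42.9 for Dusp3, 17.1 for Dusp7, 9.47 for Dusp6, 7.30 for Dusp8, 5.19 for Dusp16, 1.5 for Dusp10 and 1.03 for Dusp4. Dusp1 stood above 96.3% of all listed genes. The order was firm in the middle of the range: Dusp3 exceeded Dusp7 and Dusp7 exceeded Dusp6 in 9 of 9 libraries. Neighbours elsewhere crossed: Dusp1 exceeded Dusp3 in 7 of 9 libraries, Dusp6 exceeded Dusp8 in 7, Dusp8 exceeded Dusp16 in 8, Dusp16 exceeded Dusp10 in 8 and Dusp10 exceeded Dusp4 in 6. Dusp4 and Dusp10 were low, with Dusp4 under 1 FPKM in 7 of 9 libraries and Dusp10 in 4 of 9, and no member was under 1 FPKM in every library.

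**Figure D1:**
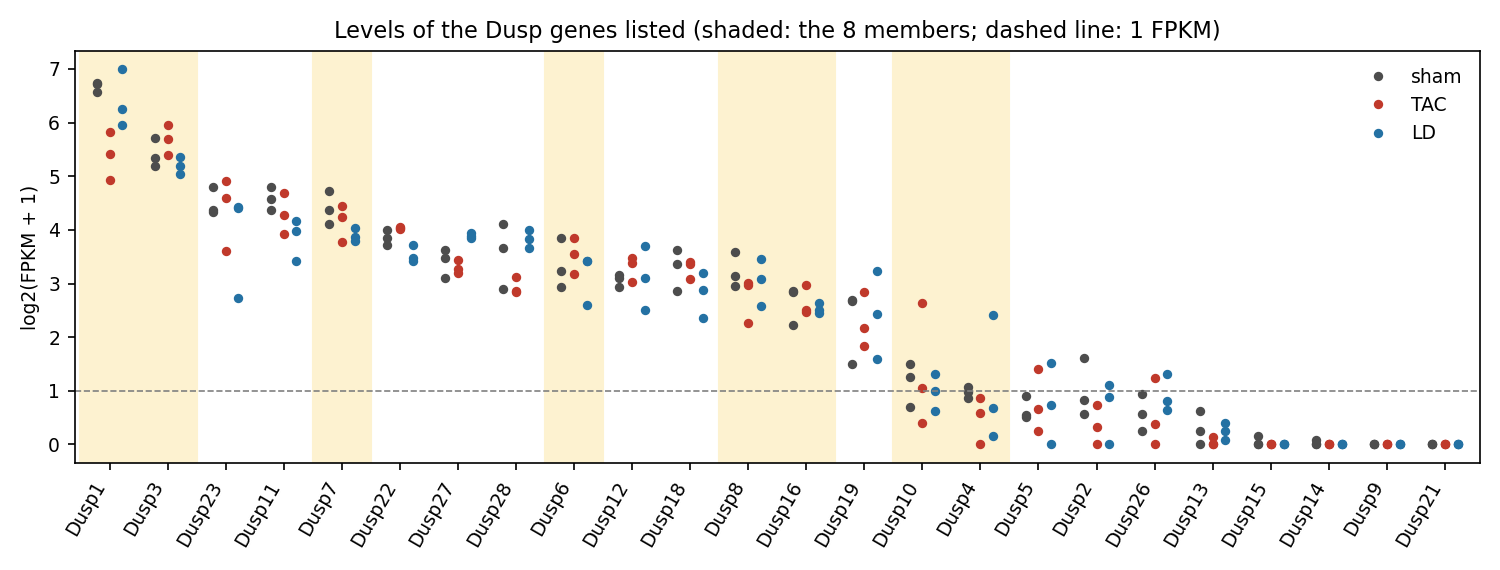
Level of each Dusp gene in the table (vertical axis, log2(FPKM + 1)), with 1 point per library coloured by group, genes ordered by mean and the 8 genes described here shaded. Dusp1 leads with a mean of 77.1 FPKM, and Dusp10 and Dusp4 lie around the dashed line at 1 FPKM.

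Dusp1 encodes the nuclear phosphatase MKP-1, which acts on p38 and JNK and also on ERK. It lies on chromosome 17 (GENCODE M21 on GRCm38: 26505590 to 26562128, minus strand), and the length recovered from its FPKM steps was 1942 bases, against 3311 annotated exon bases. In sham it stood at 106, 94.2 and 104 FPKM for replicates 1, 2 and 3, in TAC at 56.0, 41.5 and 29.3, and in LD at 126, 60.9 and 75.7. All 3 TAC hearts lay below all 3 sham hearts and below all 3 LD hearts, while the LD hearts spanned the sham range and beyond it on both sides.

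TAC against sham asks what the operation changed in mice given water. Dusp1 averaged 42.3 ± 13.4 FPKM (SD, n = 3) in TAC and 101 ± 6.30 in sham, so TAC was at 41.7% of the sham mean. The log2 difference was -1.29 ± 0.29 (SE), with a 95% interval of -1.92 to -0.66. Its unadjusted p was 0.000634, and the Benjamini-Hochberg adjusted p of limma over all 11380 genes was 0.394, so Dusp1 did not pass. With voom on the recovered fragments its adjusted p was 0.458. No gene of the 11380 passed in this comparison (0%), and 5.43% had an unadjusted p under 0.05, of which Dusp1 was the 1 among the 7 tested members. Groups did not overlap, with TAC lower, for 4.62% of all genes and for 1 of the 7 members. The direction was the same in all 23 alternative analyses, with differences from -1.51 to -1.06. Several of these leave the group means as they are. With groups that do not overlap, leaving out a heart cannot reverse the direction. In bulk tissue, fewer cells of a type and less RNA per cell cannot be told apart.

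Comparing LD with TAC addresses the effect of the decoction after the operation, and it uses the same TAC libraries. Dusp1 averaged 87.6 ± 34.2 FPKM in LD, 2.07-fold the TAC mean. The log2 difference was 1.01 ± 0.29 (95% interval 0.38 to 1.64; unadjusted p = 0.00394, limma's Benjamini-Hochberg adjusted p = 0.520, and 0.430 with voom). Again no gene passed the adjusted threshold (0%), while 8.82% of all genes had an unadjusted p under 0.05 (2.51% higher in LD), and Dusp1 was the 1 such member. Groups did not overlap, with LD higher, for 3.73% of genes and for Dusp1 alone among the members. The difference was 0.72 without LD replicate 1 and 0.78 without TAC replicate 3, the most extreme heart of each group, and it was positive in all 23 alternatives. As the groups did not overlap, leaving out a heart could not change this sign, and several alternatives leave the group means unchanged.

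LD against sham, which shares its libraries with the other comparisons, gave a Dusp1 difference of -0.28 ± 0.29 (95% interval -0.91 to 0.35; limma's Benjamini-Hochberg adjusted p = 0.903), with LD at 86.3% of the sham mean. Leaving out LD replicate 1 gave -0.57 and leaving out LD replicate 2 gave -0.05. The interval therefore spans a lower and a higher level. Over the 3 groups at once, limma's moderated F for Dusp1 was 10.7 (unadjusted p = 0.00156, Benjamini-Hochberg adjusted p = 0.461), where 0% of genes passed and 6.76% had an unadjusted p under 0.05. With TAC and LD averaged against sham, Dusp1 differed by -0.78 ± 0.25 (limma's adjusted p = 0.939). In that contrast 3 genes passed (0.0264%), none of them a member, and 4.46% had an unadjusted p under 0.05.

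Among the evenly counted libraries (sham replicates 1 and 3, TAC replicates 2 and 3) Dusp1 averaged 105 FPKM in sham (n = 2) and 35.4 in TAC (n = 2), a log2 difference of -1.56. Among the others it was 94.2 in sham replicate 2 and 56.0 in TAC replicate 1, a difference of -0.74, and 87.6 in LD (n = 3), which is 0.57 above TAC replicate 1. With the pattern as a fixed effect, a term added after seeing the data, the LD against TAC difference was 0.84. Its Benjamini-Hochberg adjusted p by limma was then 0.999, against 0.520 without the term. The Dusp1 value in TAC replicate 3 was the lowest of all. Without TAC replicate 3 and LD replicate 3 together, the Dusp1 difference was -1.06 for TAC against sham and 0.85 for LD against TAC.

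**Figure D2:**
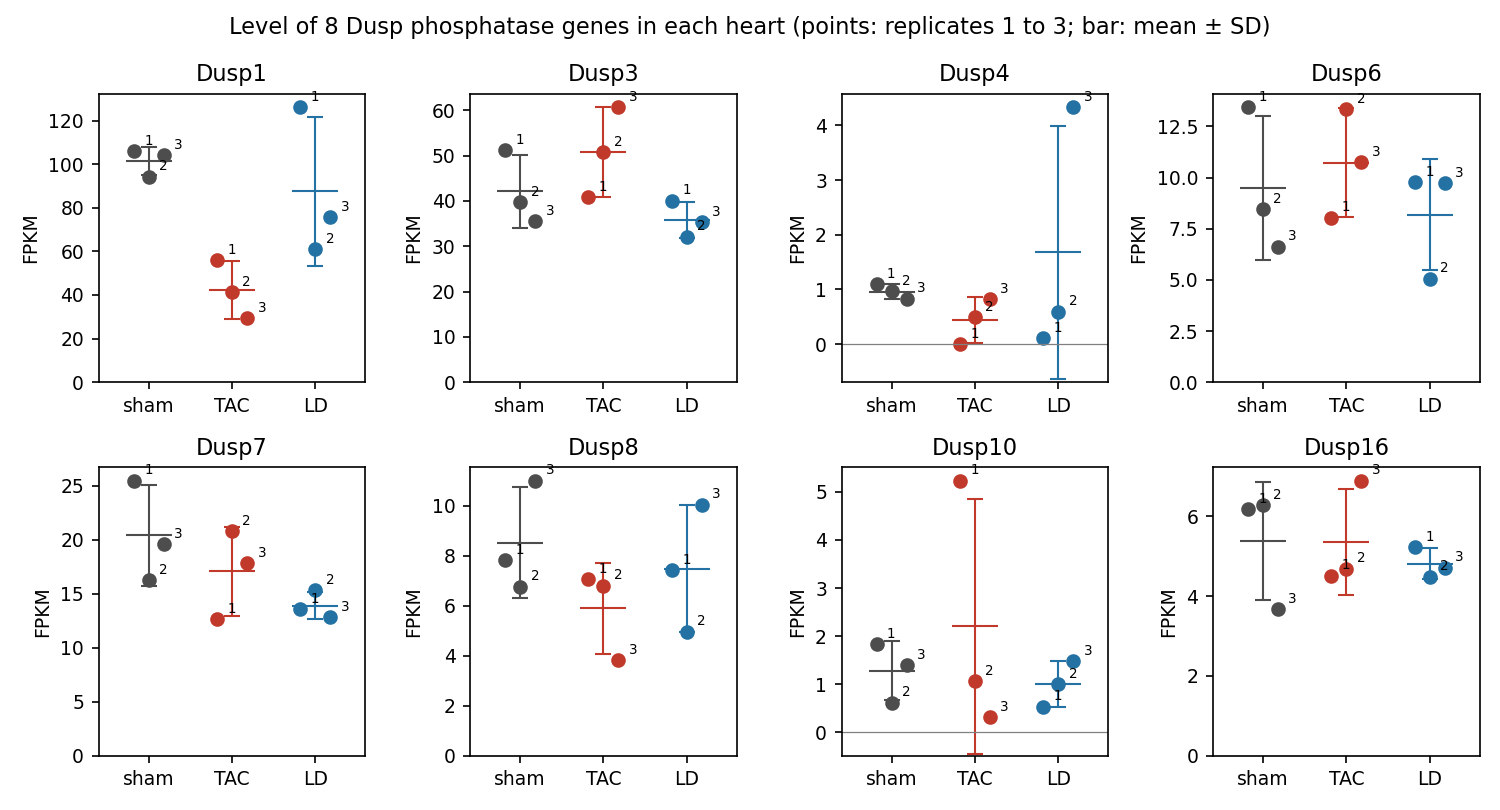
FPKM of each of the 8 genes (vertical axis, linear, a separate scale per panel) in sham, TAC and LD, with points numbered by replicate and a bar for mean ± SD (n = 3). Dusp1 in TAC (29.3 to 56.0) lies below every sham and LD heart, Dusp10 has 1 high value in TAC replicate 1 (5.23), and Dusp4 has 1 in LD replicate 3 (4.34).

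The other nuclear member, Dusp4 (MKP-2, chromosome 8, 34807297 to 34819894, plus strand), was the lowest of the 8 on average. It was listed at 1.09, 0.965 and 0.830 FPKM in sham, at 0, 0.498 and 0.827 in TAC, and at 0.111, 0.593 and 4.34 in LD. These values rest on 48, 34 and 30 recovered fragments in sham, on 0, 18 and 18 in TAC, and on 2, 26 and 169 in LD. The 0 in TAC replicate 1 allows a level of up to 0.147 FPKM, the worth of 3 fragments, by counting error only, and LD replicate 1 lay below the same limit for its library (0.166 FPKM), while the other 7 libraries lay above theirs. LD replicate 3 was the single high heart, and the other LD hearts lay below all 3 sham hearts. Dusp4 did not reach the level required for testing. Fitted without that filter, its differences were -0.49 for TAC against sham and 0.60 for LD against TAC, with adjusted p of 0.940 and 0.741 by limma's test.

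Of the ERK-directed pair, Dusp6 (MKP-3) is a feedback inhibitor that ERK signalling itself induces. It stood at 13.4, 8.44 and 6.63 FPKM in sham, 8.04, 13.4 and 10.8 in TAC and 9.77, 5.06 and 9.73 in LD. The 3 groups overlapped throughout. Its TAC against sham difference was 0.18 ± 0.32 (95% interval -0.51 to 0.88), its LD against TAC difference -0.37 ± 0.32 (-1.07 to 0.32) and its LD against sham difference -0.19 ± 0.32 (-0.88 to 0.50), and none passed limma's adjusted threshold. Dusp6 lies on chromosome 10 (99263231 to 99267489, plus strand).

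Dusp7 (MKP-X; chromosome 9, 106368632 to 106375724, plus strand), close to Dusp6 in sequence and preference, stood at 25.5, 16.2 and 19.6 FPKM in sham, 12.7, 20.8 and 17.8 in TAC and 13.6, 15.3 and 12.9 in LD. All LD hearts lay just below the lowest sham heart. Its LD against sham difference was -0.50 ± 0.26 (95% interval -1.06 to 0.05; unadjusted p = 0.0724, limma's Benjamini-Hochberg adjusted p = 0.875). In LD against sham no gene passed (0%), 5.11% had an unadjusted p under 0.05 against 0 of the 7 members, and the groups did not overlap with LD lower for 8.76% of genes and for Dusp7 alone among members. With the counting pattern as a term the difference was -0.17. TAC overlapped both groups, with differences of -0.25 ± 0.26 for TAC against sham and -0.26 ± 0.26 for LD against TAC.

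Among the JNK- and p38-directed members, Dusp8 did not separate the groups. It (chromosome 7, 142079490 to 142095843, minus strand) stood at 7.82, 6.76 and 11.0 FPKM in sham, 7.07, 6.80 and 3.81 in TAC and 7.43, 4.96 and 10.0 in LD. TAC replicate 3 was the lowest heart, and the other TAC hearts fell within the sham and LD ranges. The difference was -0.48 ± 0.31 for TAC against sham (95% interval -1.15 to 0.19; limma's Benjamini-Hochberg adjusted p = 0.987) and 0.29 ± 0.31 for LD against TAC (-0.38 to 0.97). Between the evenly counted libraries TAC against sham was -0.75, and between sham replicate 2 and TAC replicate 1 it was 0.06. Without TAC replicate 3 it was -0.24.

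Dusp16 (MKP-7; chromosome 6, 134715468 to 134792625, minus strand), which shuttles between cytoplasm and nucleus, was the steadiest of the 8, with a coefficient of variation of 20.2% over the 9 libraries. It stood at 6.19, 6.29 and 3.68 FPKM in sham, 4.52, 4.69 and 6.90 in TAC and 5.24, 4.49 and 4.72 in LD. The lowest heart was a sham heart and the highest a TAC heart. The difference was 0.01 ± 0.28 for TAC against sham, with a 95% interval of -0.59 to 0.60, and -0.11 ± 0.28 for both LD against TAC and LD against sham.

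Dusp10 (MKP-5; chromosome 1, 184013302 to 184075636, plus strand) was listed at 1.83, 0.621 and 1.40 FPKM in sham, 5.23, 1.07 and 0.322 in TAC and 0.534, 0.997 and 1.48 in LD. The TAC group held both the highest and the lowest of the 9 hearts, with 122 recovered fragments in replicate 1 and 8 in replicate 3. The difference was 0.21 ± 0.48 for TAC against sham and its sign was not stable, at -0.43 without TAC replicate 1, -0.02 without sham replicate 2 and -0.06 with voom. LD against TAC gave -0.39 ± 0.48, and 0.25 without TAC replicate 1.

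Dusp3 (VHR; chromosome 11, 101971143 to 101987013, minus strand), an atypical member that acts on ERK and JNK, differed from Dusp1 in the place of TAC. It stood at 51.1, 39.7 and 35.6 FPKM in sham, 40.9, 50.8 and 60.7 in TAC and 40.0, 32.1 and 35.4 in LD. All LD hearts lay below all TAC hearts, by a margin of less than 1 FPKM between the nearest, as they did for 8.14% of genes. The LD against TAC difference was -0.48 ± 0.24 (95% interval -0.99 to 0.03; unadjusted p = 0.0629, limma's Benjamini-Hochberg adjusted p = 0.575). TAC against sham gave 0.26 ± 0.24 with overlapping groups, and LD against sham -0.22 ± 0.24. Between the evenly counted libraries TAC against sham was 0.37 and between the others 0.04, and TAC replicate 1 was 0.19 above the LD mean on the log2 scale. With the counting pattern as a term LD against TAC was -0.30. Of the annotated exon bases of Dusp3, 604 overlap the predicted gene Gm20659, whose reads cannot be told apart where strand is not kept.

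**Figure D3:**
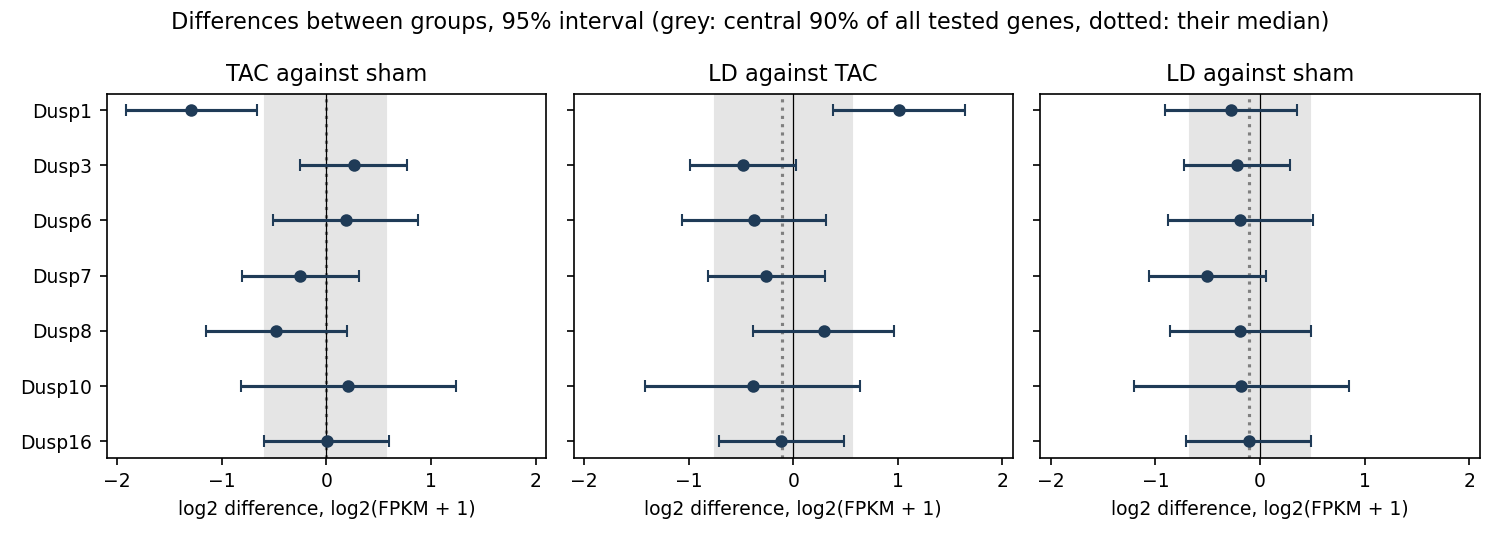
Log2 difference with its 95% interval (horizontal axis, log2(FPKM + 1) scale) for the 7 tested genes in TAC against sham, LD against TAC and LD against sham, over a grey band holding the central 90% of all tested genes and a dotted line at their median. Dusp1 is the gene whose interval leaves 0 out in the first pair of panels, at -1.29 and 1.01, and no interval leaves 0 out in the third panel.

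Counted together, 4 of the 7 tested members lay above 0 and 3 below in TAC against sham, with a median of 0.01 beside a median of -7.22e-05 over all genes. In LD against TAC 2 lay above and 5 below, with a median of -0.26, where 60.4% of all tested genes lay below 0 and their median was -0.10. In LD against sham all 7 lay below 0, with a median of -0.19, where 62.8% of all genes did and their median was -0.11. Scaling by the median of ratios moved the all-gene median of LD against TAC to 0.01, and scaling to equal sums moved it to -0.19.

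Dusp1, the most abundant member, took a smaller share of the family's summed level in TAC hearts. The 8 genes summed to 190 ± 20.8 FPKM in sham, 135 ± 4.57 in TAC and 160 ± 39.6 in LD. Without Dusp1 the sums were 88.2 ± 16.2, 92.5 ± 12.3 and 72.9 ± 8.19. Dusp1 made up 49.8% to 56.9% of the sum in sham hearts, 22.5% to 41.7% in TAC hearts and 48.9% to 62.2% in LD hearts. The ratio of Dusp1 to Dusp3, taken within a library and so free of its scaling, was 2.07, 2.37 and 2.92 in sham, 1.37, 0.816 and 0.483 in TAC and 3.15, 1.90 and 2.14 in LD. In 2 of 3 TAC hearts Dusp3 exceeded Dusp1, and in no sham or LD heart.

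Across the 9 libraries the members did not vary as a block. Pearson's r of log2(FPKM + 1) was 0.79 between Dusp3 and Dusp6, 0.68 between Dusp3 and Dusp16 and 0.69 between Dusp1 and Dusp8, while Dusp1 and Dusp3 had -0.52. These describe 9 points that share group structure and counting pattern. The tested genes most like Dusp1 were Shkbp1 (r = 0.96), Zfp746 (0.95) and Rhbdl1 (0.94). Those most like Dusp3 were Ccnj (0.98), Dcbld2 (0.97) and Abcc9 (0.96). Dusp6 was nearest to Bcl2l2 (0.93), Dock8 (0.92) and Cav2 (0.91), and Dusp7 to Inafm2 (0.94), Nrn1 (0.94) and Hacd1 (0.93). Dusp8 was nearest to Pa2g4 (0.93), Grk4 (0.91) and Wdr25 (0.90), and Dusp16 to Nars (0.94), Eed (0.94) and Cyb5r4 (0.94). For Dusp10 the nearest were Oma1 (0.98), Cd40 (0.90) and Creld2 (0.89), each highest in TAC replicate 1 as Dusp10 was.

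The 3' untranslated regions differed in ATTTA pentamers, the core of the AU-rich elements that shorten the life of many immediate early transcripts. Dusp1 had 4 in 690 bases, or 5.80 per kilobase, a density that 4.64% of 10968 tested genes reached, while 26.7% of them held at least as many. Dusp8 held more, with 5 in 2370 bases, a number that 20.3% of genes reached. By density Dusp10 had 2.70 per kilobase, Dusp8 2.11, Dusp4 1.8, Dusp16 1.24, Dusp3 1.11 and Dusp6 0.841, and Dusp7 had none in 1778 bases. RNA stability was not measured here.

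The 3 typical MAP kinase phosphatases outside the 8 were low. Dusp2, a nuclear enzyme of immune cells, reached at most 2.08 FPKM, Dusp5, a nuclear ERK phosphatase, at most 1.86, and Dusp9, a relative of Dusp6, was listed at 0 in every library. Of 21 atypical and other dual specificity phosphatases, 15 were tested. None had an unadjusted p under 0.05 in TAC against sham, and 2 lay higher and 2 lower in LD against TAC, where 2.51% and 6.31% of all genes did, none passing limma's adjusted threshold. In 2 of the 15 LD lay above TAC without overlap and in 2 below, as for 3.73% and 8.14% of all genes. Dusp28 stood at 13.2, 11.7 and 14.9 FPKM in LD and at 6.23, 7.66 and 6.14 in TAC (log2 0.89 ± 0.30), with no overlap, and at 11.6, 6.42 and 16.2 in sham. Dusp27, a muscle protein of the family whose catalytic site is thought inactive, stood at 13.8, 13.4 and 14.4 in LD and at 9.90, 8.62 and 8.20 in TAC. The lower pair were Dusp22, a JNK pathway phosphatase (-0.50), and the cofilin phosphatase Ssh2 (-0.69). In LD against sham Dusp11, an RNA phosphatase, differed by -0.73, with LD below sham in every heart, as for 8.76% of all genes. Another list held 13 phosphatases, of which 11 were tested. It is not limited to phosphatases of MAP kinases, as Ptpn2, Ptpn6 and Ptpn11 in it act mainly on other signalling proteins. Ptpn2, a tyrosine phosphatase, was lower in every TAC heart (2.1 to 2.92 FPKM) and every LD heart (1.76 to 2.97) than in sham (3.79 to 4.79), with differences of -0.56 and -0.62, a separation shown by 4.62% and 8.76% of all genes. Ppp2ca, the catalytic subunit of PP2A, was the most abundant at a mean of 68.7 FPKM.

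For the MAP kinases themselves, 9 of 14 genes were tested. In TAC against sham, 7 lay above 0, and none had an unadjusted p under 0.05, with a median of 0.14. Mapk3, which encodes ERK1, was the most abundant of those described here at a mean of 86.9 FPKM. In LD against TAC 8 of the 9 lay below 0, with a median of -0.33 against -0.10 over all genes. Mapk6 (ERK3) at -0.82 and the Nemo-like kinase gene Nlk at -0.71 had an unadjusted p under 0.05 and no overlap, where 6.31% and 8.14% of all genes lay lower by these criteria, and neither passed limma's adjusted threshold. Mapk14, the p38 alpha gene, was listed below 0.6 FPKM in every library, a low value for this gene that is not read as absence, since neither the annotation nor how its isoforms were counted is stated. In the same table Mapk12 (p38 gamma) averaged 29.2 and Mapk11 (p38 beta) 6.83. Mapk3, Mapk11 and Mapk14 are named for their known roles, after their values were seen. Of the kinases upstream, 0 of 17 MAP kinase kinase and RAF genes tested had an unadjusted p under 0.05 in either comparison, with medians of -0.02 in TAC against sham and -0.14 in LD against TAC. None of the 12 genes coupling receptors to RAS had one in TAC against sham. In LD against TAC Nras and Mras, small GTPases, lay in opposite directions at an unadjusted p under 0.05, at -0.82 and 0.74, where 6.31% of all genes lay lower and 2.51% higher.

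Genes that ERK signalling induces lay on both sides of 0. In TAC against sham 2 of 12 had an unadjusted p under 0.05 and lay lower, the receptor kinase gene Epha2 (-1.18 ± 0.30) and Ier3 (-0.83), and 1 lay higher, the feedback inhibitor Spry1 (0.52), where 2.58% of all genes lay lower and 2.85% higher. The list's median was -0.24. Epha2 was the member of smallest p in LD against TAC too (1.21 ± 0.30), at 5.15, 2.79 and 4.97 FPKM in sham, 1.11, 1.64 and 1.12 in TAC and 3.39, 4.23 and 5.37 in LD. No gene of the list passed limma's adjusted threshold.

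Among the immediate early genes, to which Dusp1 belongs, more lay lower in TAC than higher. Of 33 tested, 10 had an unadjusted p under 0.05 and lay lower in TAC than in sham and 2 lay higher, where 2.58% and 2.85% of all genes did. Their median was -0.25. The hearts of a group differed: the mean log2 deviation of the 33 from the sham mean was -0.57, -0.20 and -0.14 in TAC replicates 1, 2 and 3. In LD it was 0.16, -0.47 and -0.29. TAC replicate 1 was thus the lowest heart for the list, while for Dusp1 it was the highest of the TAC hearts. Fos, a subunit of the AP-1 transcription factor, stood at 9.79, 6.84 and 5.97 FPKM in sham, 1.14, 2.44 and 2.45 in TAC and 7.65, 4.26 and 7.23 in LD. Nr4a1, an orphan nuclear receptor, stood at 17.5, 8.22 and 7.59 in sham, 2.58, 2.63 and 2.44 in TAC and 18.3, 4.22 and 10.3 in LD. In both genes every TAC heart lay below every sham and LD heart. Over all genes, 4.62% lay lower in TAC than in sham without overlap, and 3.73% higher in LD than in TAC. The antiproliferative gene Btg2 differed by -0.96 and the stress gene Gadd45b by 1.15 in TAC against sham. Of the same 33 genes, 7 lay higher and 4 lower in LD than in TAC at an unadjusted p under 0.05, where 2.51% and 6.31% of all genes did, with a median of 0.18, and the smallest p belonged to Fos (1.29), Nr4a1 (1.56), the mRNA decay factor gene Zfp36 (0.81) and the transcription factor gene Egr1 (1.24). No gene of the list passed limma's adjusted threshold, and the comparisons share the TAC hearts.

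Lists of genes grouped by inducers of Dusp1 gave mixed counts. Of 11 tested genes listed as CREB-responsive, 2 lay lower in TAC than in sham at an unadjusted p under 0.05, Fos and Nr4a1. Both are also in the immediate early list, and 2.58% of all genes lay lower. Between LD and TAC 3 lay higher in LD, Fos, Nr4a1 and the clock gene Per1 (0.89), where 2.51% of all genes did. Crebzf, which encodes a CREB family protein and is not an established CREB target, lay lower, where 6.31% of all genes did. The median of the list in LD against TAC was 0.02. Of 11 glucocorticoid-responsive genes 1 lay lower in TAC at the same threshold, again beside 2.58% of all genes, Lcn2 (-0.86), which encodes a secreted iron-trafficking protein. Between LD and TAC 2 lay higher in LD, Lcn2 and Per1, and 3 lower, Pdk4 (-0.85 ± 0.24), which encodes a kinase that limits glucose oxidation, and the transcription factor genes Klf9 (-1.07) and Zbtb16 (-0.85), beside the same 2.51% and 6.31%, with a median of -0.05.

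**Figure D4:**
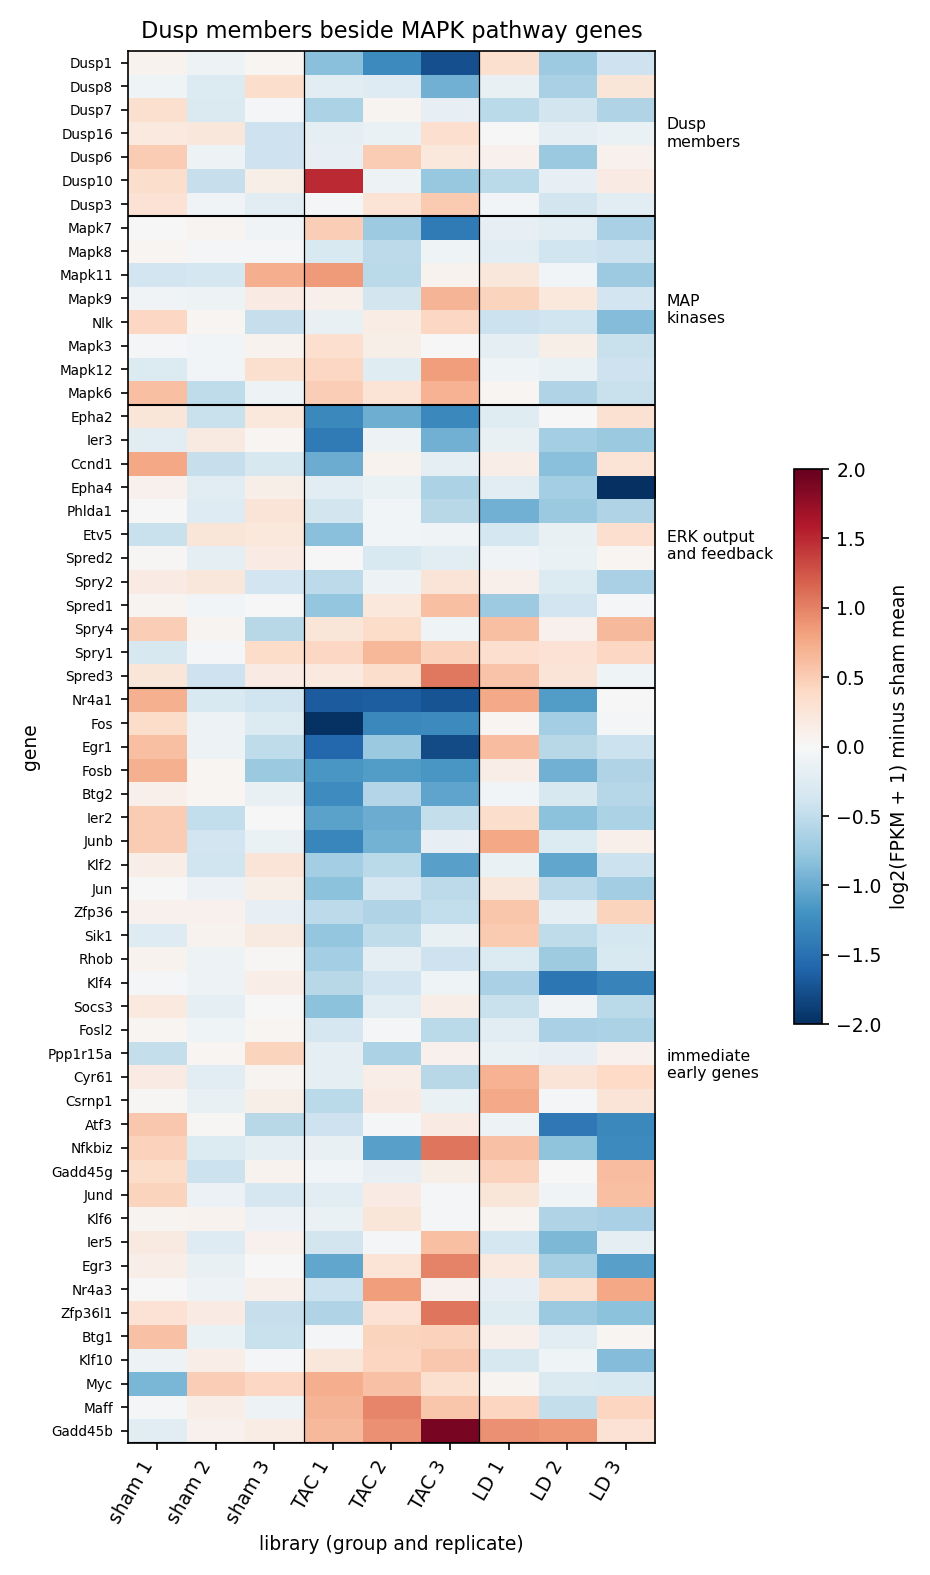
Tested Dusp members, MAP kinases, ERK output genes and immediate early genes (rows) in each library (columns), coloured by log2(FPKM + 1) minus the sham mean, from -2 (blue) to 2 (red). Dusp1 (-1.29 in TAC against sham), Epha2 (-1.18), Fos (-1.51) and Nr4a1 (-1.68) are blue across the 3 TAC columns, and the MAP kinase rows show no such block.

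Marker lists of heart cell types are given beside Dusp1, and no marker passed limma's adjusted threshold in TAC against sham or LD against TAC. Ventricular myocyte markers matched the tissue label, with all 12 tested. They summed to 66455 to 72073 FPKM in sham, 51219 to 67547 in TAC and 65893 to 98330 in LD, with overlap between groups. In TAC against sham 9 of the 12 lay below 0 (median -0.13), and 2, the contractile protein genes Tnni3 and Myh6, had an unadjusted p under 0.05 and did not overlap, where 2.58% and 4.62% of all genes lay lower by these criteria. In LD against TAC 8 lay above 0 (median 0.23), and 4, Myh6, Myl3, Tnni3 and Csrp3, had an unadjusted p under 0.05 and did not overlap, where 2.51% and 3.73% of all genes lay higher. These group differences have the signs of those of Dusp1. Heart by heart, the mean log2 deviation of the 12 markers from the sham mean was -0.12, -0.07 and -0.28 in TAC replicates 1, 2 and 3. In LD it was -0.07, 0.03 and 0.33, lowest in replicate 1, where Dusp1 was highest. The 10 fibroblast markers summed to 1019 to 1214 FPKM in sham, 1583 to 2532 in TAC and 1156 to 1754 in LD, and all 10 lay above 0 in TAC against sham (median 0.65) and 9 below 0 in LD against TAC (median -0.70). At an unadjusted p under 0.05, 6 of them lay higher in TAC than in sham, beside 2.85% of all genes, and 4 lower in LD than in TAC, beside 6.31%. The 7 erythroid markers summed to 516 to 3344 FPKM in sham, 2238 to 11052 in TAC and 1205 to 2274 in LD, ranges that overlap. All 5 tested lay above 0 in TAC against sham (median 1.39) and below 0 in LD against TAC (median -1.37). At an unadjusted p under 0.05, 3 lay higher in TAC than in sham, beside 2.85% of all genes. In LD 2 lay lower than in TAC, beside 6.31%. Endothelial markers had medians of -0.01 and -0.14 in the same comparisons, and the 8 lymphocyte markers summed to at most 6.31 FPKM. Atrial markers summed to 77.3 to 114 FPKM in sham, 110 to 463 in TAC and 175 to 559 in LD, with Bmp10 at 0 in every library. Their 5 tested members went both ways in TAC against sham, 3 above and 2 below 0 from -1.32 to 1.53 (median 0.12), and the 1 with an unadjusted p under 0.05 was Nppa, a natriuretic peptide gene that ventricular myocytes also make under load. The part of these cell types in the Dusp values was not tested.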

How the data were processed

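Poly-A RNA of 9 mouse hearts was sequenced. Per the submitters' processing notes the build was GRCm38, and the tools named were DESeq, Cufflinks 2.2.1, HTSeq 0.7.2, HISAT2 2.1.0, fastp 0.20.0 and CASAVA 1.8, with no role given. The authors deposited FPKM values; the sources used here name neither the tool that made them nor the annotation. Library totals were recovered from FPKM steps, which gave whole numbers of fragments (tolerance 0.001) for 100% of the 16262 genes above 0.

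Genes with at least 1 FPKM in at least 3 libraries (11380) were tested as log2(FPKM + 1), which understates the change of low genes. limma 3.58.1 in R 4.3.3 fitted 1 mean per group over all 3 groups (6 residual degrees of freedom), with trended empirical Bayes, two-sided tests and Benjamini-Hochberg adjustment at 0.05. Errors are limma's standard errors for differences and SDs for levels. Intervals cover 95%. The fit was also run on simulated normal values drawn independently for each library. These hold no outlying library and no counting pattern, so that run does not speak for the fit on these hearts.

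The members and lists were chosen with earlier results of these data known. Named genes are the members, their relatives with a mean of at least 1 FPKM, up to 4 tested genes of smallest p per list and up to 3 genes of highest r per member; predicted genes were not named, except Gm20659, which overlaps Dusp3, and a gene that the rule names is not reported here. Dusp2, Dusp5, Dusp9, Mapk3, Mapk11, Mapk14, Zbtb16 and Bmp10 are named outside this rule, after their values were seen. Coordinates are from GENCODE M21, upstream sequences from RefSeq. Alternatives changed the pseudocount, filter, scaling, fit and weights, used voom on recovered fragments, or left out each library; the counting pattern as a term, and leaving out TAC replicate 3 and LD replicate 3 together, were chosen after seeing the data.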

Additional observations from a re-analysis of the deposited data

How the results depend on the processing

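Dusp1 kept its direction in TAC against sham (-1.51 to -1.06), LD against TAC (0.68 to 1.24) and LD against sham (-0.57 to -0.05) under all 23 alternatives, and its adjusted p by limma stayed at or above 0.0867, 0.185 and 0.174. In TAC against sham and LD against TAC the groups did not overlap, so leaving out a heart could not change the sign. No tested member passed the adjusted threshold under any alternative. Dusp4 and Dusp10 rest on few recovered fragments, 0 to 169 and 8 to 122 per library. The cause of the changes below was not tested.

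Replicate numbers did not pair the hearts: deviations of same-numbered hearts correlated at -0.236, 0.146 and -0.187 between sham and TAC, at -0.0613, -0.00947 and -0.0271 between TAC and LD and at 0.0234, -0.0492 and -0.165 between sham and LD. With the replicate block 0 genes passed in TAC against sham, LD against TAC and LD against sham, as without it.

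Counts of genes past the adjusted threshold changed as follows. In TAC against sham (0 genes), 2 passed among genes with a mean FPKM of at least 5, 9 with library weights, 4 with voom and 0 to 13 when a replicate was left out. LD against sham (0) gave 3 at the higher mean, 10 with only the 2 groups in the fit, 135 with library weights, 3 with voom and 0 to 8 with a replicate left out. The library weights were 0.738, 4.74 and 0.397 for LD replicates 1, 2 and 3, so the weighted LD mean rested largely on replicate 2. TAC and LD together against sham (3) gave 0 without the filter, 26 with library weights, 5 with the counting pattern as a term and 0 to 8 with a replicate left out. The F test (0) gave 2 at the higher mean, 44 with library weights, 3 with voom and 0 to 8 with a replicate left out.

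Members whose difference lay near 0 changed sign. In TAC against sham, Dusp10 was at -0.057 with voom, and Dusp16 at -0.0092 with median-of-ratios scaling, -0.15 with library weights, -0.0099 with voom and -0.16 without TAC replicate 3 and LD replicate 3 together. In LD against TAC, Dusp7 was at 0.080 with the counting pattern as a term, Dusp8 at -0.15 with library weights and -0.16 without both libraries, and Dusp16 at 0.0064 with median-of-ratios scaling and 0.063 without both libraries. In LD against sham, Dusp6 was at 0.036 with the counting pattern as a term. Leaving out 1 replicate at a time, TAC against sham ran from -0.020 to 0.44 for Dusp6, from -0.43 to 0.69 for Dusp10 and from -0.20 to 0.12 for Dusp16. LD against TAC ran from -0.87 to 0.25 for Dusp10 and from -0.21 to 0.051 for Dusp16. LD against sham ran from -0.39 to 0.085 for Dusp6, from -0.40 to 0.043 for Dusp8, from -0.41 to 0.00025 for Dusp10 and from -0.32 to 0.0020 for Dusp16.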
